A study of Mus musculus with 5 samples.

Results

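Capillary endothelial cells line the smallest vessels of the heart. The cells described here are 5799 cell barcodes from 5 single-cell RNA libraries of mouse hearts, out of 47319 barcodes in all and 38337 whose mitochondrial transcripts made up at most 10% of their unique molecular identifiers (UMIs, 1 per captured RNA molecule). They were chosen by their own transcripts. A barcode was kept with at least 2 UMIs of Cdh5 plus Pecam1, which encode adhesion proteins of all endothelial cells, and at least 2 UMIs of Gpihbp1, Car4 and Aqp7 together, which mark capillaries. It was kept only with 0 UMIs of the arterial genes Stmn2, Hey1 and Gja4, at most 1 UMI of Vwf, Npr3 and Cytl1, fewer than 5 UMIs of the chemokine genes Cxcl9 and Cxcl10, at most 3 UMIs of the fibroblast genes Dcn and Col1a1, and at most 1 UMI of the leukocyte genes Cd3e, C1qa and Cd79a. These 18 genes and the mitochondrial genes chose the cells, so their values are given as description and were not tested.

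The series concerned myocarditis caused by loss of immune checkpoints. Control mice were Ctla4+/+Pdcd1-/- (4 mice, 2 libraries, here control 1 and 2) and diseased mice were Ctla4+/-Pdcd1-/- (10 mice, 3 libraries, here disease 3, 4 and 5). Both groups therefore lacked PD-1, and they differed by 1 copy of the gene for CTLA-4. Hearts were pooled, digested with enzymes and sorted for live nucleated cells (DRAQ5+DAPI-), and the labels name neither the mice in each library nor their age, sex or day of preparation. The genotype field of control 2 and disease 4 reads Pdcd2-/- and that of disease 5 reads Pdcd3-/-, while the stain also counts upward from sample to sample. The groups were therefore taken from the Ctla4 part of the label and the series text. With 2 libraries against 3 of pooled hearts, p-values measure the spread between these libraries, and a difference between preparations cannot be told apart from disease.

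Heart capillaries supply muscle that burns mostly fat. Gpihbp1 carries lipoprotein lipase to the capillary wall, where the enzyme frees fatty acids from circulating particles. Cd36 and the fatty acid binding proteins Fabp4 and Fabp5 take these across the endothelium, with Meox2 and Tcf15 as transcription factors of that programme. Capillary cells also present antigen, answer interferon, hold a daily clock and form the barrier that leukocytes cross.

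Counts of capillary cells were 1189 in control 1, 1281 in control 2, 1092 in disease 3, 846 in disease 4 and 1391 in disease 5, with 2087071 to 4158301 UMIs summed per library. The median capillary cell held 3035, 2869, 2803, 2187.5 and 2547 UMIs in that order of libraries. The disease 4 library had the fewest cells and the shallowest ones. Between 1 and 4 barcode sequences of capillary cells were shared by any pair of libraries. Scrublet called 1 to 10 of the capillary cells of a library doublets.

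The genes of the choice describe what it selected. After thinning each cell to 1000 UMIs, Gpihbp1 was seen in 86.6% to 94.5% of capillary cells and in 0.832% to 1.80% of fibroblast-gated cells (at least 4 UMIs of Dcn and Col1a1, 0 of Cdh5 and Pecam1). The chosen genes Gpihbp1 (2544 to 3692 CPM, UMIs scaled to a common library total with TMM factors), Car4 (537 to 886 CPM) and Aqp7 (242 to 379 CPM) were present in every library, as were Cdh5 (970.4 to 1152 CPM) and Pecam1 (769 to 980.4 CPM). The label was checked on Fabp4, a fatty acid binding protein of heart endothelium that was not part of the choice. After thinning it was seen in 99.8% to 99.9% of capillary cells, in 10.2% to 20.0% of fibroblast-gated cells and in 97.1% to 99.3% of arterial-gated cells, so it marks endothelium and does not set capillary cells apart from arterial ones. It was the most abundant gene outside the choice. Its level was 26490 and 24476 CPM in control 1 and 2 and 29119, 35134 and 29233 CPM in disease 3, 4 and 5. Transcripts of other cells were also found, those of red cells at up to 6618 CPM summed over 4 genes in disease 4, and their sums are given with the interferon results.

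Cells at the edges of the choice were compared with those further in and out. In control 1, Fabp4 stood at 6415 CPM (here and below for cell bins without TMM scaling) in otherwise qualifying cells with 0 UMIs of the 3 capillary genes, at 11518 CPM with 1 UMI, 12501 CPM with 2 UMIs and 26645 CPM with 3 or more. Cells with 2 UMIs, just inside the limit, were shallower as well, with a median of 1950 UMIs against 3127 for those with 3 or more. The limit on Cxcl9 plus Cxcl10 took out 100 cells of control 1, 38 of control 2, 29 of disease 3, 182 of disease 4 and 102 of disease 5 that met all other limits. As a share of the cells meeting those limits this was 7.76%, 2.88%, 2.59%, 17.7% and 6.83%, so that disease 4 lost most and disease 3 least. Just inside that limit, with 3 to 4 UMIs, the interferon-induced GTPase gene Gbp2 stood at 1015 CPM in disease 4, and just outside, with 5 to 6 UMIs, at 1217 CPM. In disease 4 cells with 0 UMIs of both chemokines it was 327 CPM, and with 7 or more 3013 CPM. From just inside to just outside it went from 356 to 448 CPM in control 1, from 163 to 332 CPM in control 2, from 217 to 168 CPM in disease 3 and from 636 to 757 CPM in disease 5, where the outer bins held 42, 25, 19 and 27 cells.

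Capillary cells made up 12.8% of kept barcodes in control 1 (95% Wilson interval 12.2 to 13.5), 22.9% in control 2 (21.8 to 24.0), 18.8% in disease 3 (17.8 to 19.8), 8.49% in disease 4 (7.96 to 9.05) and 18.1% in disease 5 (17.2 to 19.0). These intervals cover counting error only. The 2 groups overlapped, with means of 17.9% ± 7.14 (SD, n = 2) in control and 15.1% ± 5.75 (SD, n = 3) in disease, and the exact permutation test gave p = 0.7. Among endothelial-gated barcodes the share was narrower, at 49.6% and 53.0% in control and 49.6%, 47.5% and 48.8% in disease. The disease mean was 2.68 percentage points lower on that base, and the 2-sided exact permutation test gave p = 0.1, the smallest value that 2 against 3 libraries allow. The difference was -4.41 points without control 1 and -0.95 points without control 2. Without the limit on Cxcl9 and Cxcl10 the mean difference was -0.51 points (exact permutation p = 1.0), and disease 4 then had the highest share, 57.8%.

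**Figure D1:**
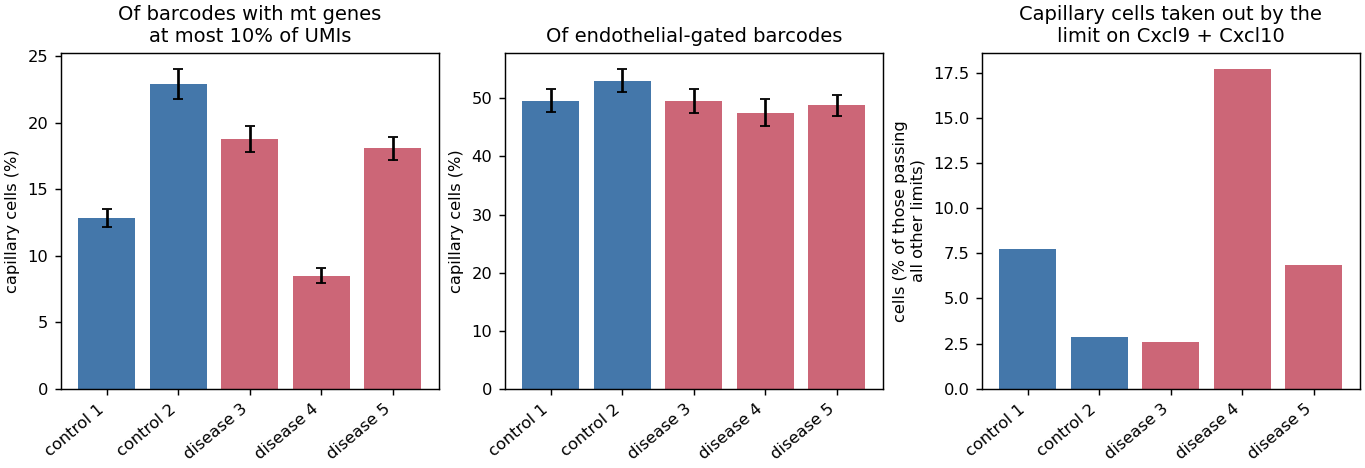
Capillary cells in each library (x axis) as a percentage of kept barcodes, of endothelial-gated barcodes, and, at right, the percentage of cells removed only by the limit on Cxcl9 plus Cxcl10. Bars in the left and middle panels have 95% Wilson intervals; the share of endothelial barcodes stays between 47.5% and 53.0%, while the removed share reaches 17.7% in disease 4.

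Across the transcriptome of capillary cells far more genes were lower than higher in disease. UMIs were summed per library and compared by the quasi-likelihood test of edgeR, with p-values adjusted by Benjamini-Hochberg over all genes tested and a threshold of 0.05. Of 11163 genes tested, 38 were higher (0.340%) and 1230 were lower (11%) in disease, while the median gene had a log2 change (log2 of disease over control) of 0.00. Every disease library lay above every control library for 19.1% of genes and below for 25.2%. Counts of members below are read against these shares. The calls were weighted towards transcripts whose first 300 bases were rich in G and C: their median GC content was 64.2% for genes called lower, 56.5% for genes called higher and 58.0% for the rest. With a trend on GC removed, 120 genes were higher and 1063 lower. Without disease 5, 8 were higher and 687 lower, and without disease 4, 49 were higher and 1243 lower.

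**Figure D2:**
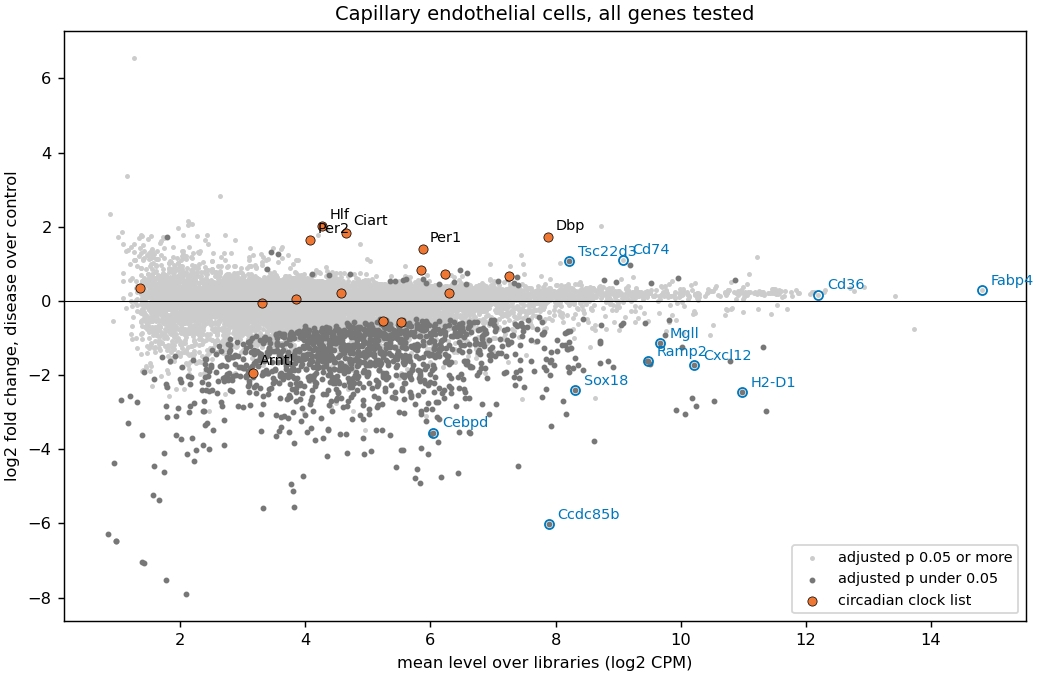
Log2 fold change of disease over control in capillary cells against mean level over libraries (log2 CPM) for all genes tested; grey points are not called, dark grey points have an adjusted p under 0.05 and orange points are the circadian clock list. Dbp, Per1, Per2, Ciart and Hlf lie above the line at 0, Arntl below, and the abundant lipid genes Fabp4 and Cd36 close to it.

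The largest rises in capillary cells were ranked among called genes with a mean log2 CPM of at least 5 and groups without overlap. Of the 12 largest so ranked, 5 were in genes of the circadian clock (Dbp, Per1, Tef, Bhlhe40 and Nr1d1). The clock is a loop in which CLOCK and ARNTL (BMAL1) drive the Per and Cry repressors, the Nr1d1 repressor and the output factors Dbp, Tef and Hlf through E-boxes, DNA sites with the letters CACGTG. Of 17 clock genes listed, 16 were tested, 8 were higher and 1 was lower, against 0.340% and 11% of all genes. The list's median log2 change was 0.50 against 0.00 for all genes. Promoters are shown for the clock genes whose start region held the E-box, so that the site can be read beside the level of each gene. Windows of 300 bases, from 250 before to 50 after the start, were found in RefSeq for 15 of the 17 genes (20 windows; Per2 and Bhlhe40 had none). CACGTG, which reads the same on both strands, was in windows of 4 of these genes: Ciart, Per1, Tef and Cry1. Over all 32851 promoter windows of this length it was in 7.15%. The 250 bases before the start are given 5′ to 3′ on the gene's own strand (RefSeq, GRCm38.p6), with the E-box in capitals.

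Ciart, chr3:95882229-95882478, minus strand: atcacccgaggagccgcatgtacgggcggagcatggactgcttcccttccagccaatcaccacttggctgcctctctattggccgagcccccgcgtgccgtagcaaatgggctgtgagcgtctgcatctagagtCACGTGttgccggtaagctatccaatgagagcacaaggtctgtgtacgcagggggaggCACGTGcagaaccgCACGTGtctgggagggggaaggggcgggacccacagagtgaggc
Cry1, chr10:85185055-85185304, minus strand: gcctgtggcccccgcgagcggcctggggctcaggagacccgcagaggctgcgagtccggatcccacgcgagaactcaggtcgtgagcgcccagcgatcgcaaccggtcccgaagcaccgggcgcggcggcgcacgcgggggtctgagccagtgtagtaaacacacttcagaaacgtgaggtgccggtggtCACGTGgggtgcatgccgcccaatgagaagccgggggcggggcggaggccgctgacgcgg
Per1, chr11:69098699-69098948, plus strand: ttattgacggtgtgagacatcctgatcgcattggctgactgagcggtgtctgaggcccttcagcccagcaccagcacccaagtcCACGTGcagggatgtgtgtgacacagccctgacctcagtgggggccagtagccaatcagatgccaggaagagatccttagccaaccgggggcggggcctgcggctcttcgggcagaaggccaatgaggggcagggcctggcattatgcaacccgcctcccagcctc
Tef, chr15:81802423-81802672, plus strand: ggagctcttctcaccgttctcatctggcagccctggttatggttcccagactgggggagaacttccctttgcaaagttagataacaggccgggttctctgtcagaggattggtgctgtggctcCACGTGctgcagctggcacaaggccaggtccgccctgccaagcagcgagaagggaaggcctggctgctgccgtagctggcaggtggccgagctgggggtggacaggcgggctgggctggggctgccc
Tef, chr15:81811164-81811413, plus strand: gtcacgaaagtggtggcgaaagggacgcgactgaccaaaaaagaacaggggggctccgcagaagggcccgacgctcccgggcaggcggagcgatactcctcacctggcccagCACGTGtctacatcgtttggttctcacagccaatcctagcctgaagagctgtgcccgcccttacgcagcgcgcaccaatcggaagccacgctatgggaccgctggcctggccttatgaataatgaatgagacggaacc

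Ciart, whose product represses the CLOCK and ARNTL pair, held 3 E-boxes, starting 116, 58 and 44 bases before the start, Per1 held 1 at 166 bases and Cry1 1 at 60 bases. Tef held 1 in each of 2 alternative promoters, at 127 and 138 bases. Ciart stood at 9.84 and 9.61 CPM in control and 31.0, 36.8 and 37.3 CPM in disease. It rose by 1.84 on the log2 scale (SE 0.17, edgeR adjusted p = 0.00111), and all 3 disease libraries were over 3 times the control libraries. Per1, a core repressor, went from 28.5 and 30.8 CPM in control to 66.6, 86.8 and 80.3 CPM in disease (log2 change 1.39, SE 0.16, edgeR adjusted p = 0.00225). Tef stood at 32.0 and 46.3 CPM in control and 70.4, 60.8 and 76.8 CPM in disease (log2 change 0.83, SE 0.20, edgeR adjusted p = 0.0425). Its groups did not overlap, but the call was kept under only 8 of 14 alternative settings, against 14 of 14 for Ciart and Per1. It was lost without control 1, disease 3 or disease 5 (log2 change 0.60 to 1.12 on leaving out 1 library at a time, edgeR adjusted p up to 0.178). Cry1, the repressor partner of the Per proteins, was at 9.08 and 9.86 CPM in control and 10.9, 7.55 and 8.76 CPM in disease, with a log2 change of -0.04 (SE 0.24) and overlapping groups. Among the 4 genes with an E-box in the window, 3 were thus called higher and 1 was not.

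Among clock genes with no E-box in the window or no window, Dbp was the most abundant in disease of those that rose. It was at 90.3 and 108 CPM in control and at 281, 319 and 379.8 CPM in disease (log2 change 1.72, SE 0.17, edgeR adjusted p = 0.00143). Hlf, of the same family of output factors as Dbp and Tef, stood at 6.81 and 6.66 CPM in control and 32.5, 18.9 and 29.5 CPM in disease (log2 change 2.02, SE 0.28, edgeR adjusted p = 0.00511). Per2, the paralogue of Per1, went from 5.80 and 8.87 CPM to 22.7, 26.9 and 19.8 CPM (log2 change 1.63, SE 0.25, edgeR adjusted p = 0.00825). In each of these 3 genes every disease library was above both controls. Nr1d1, which represses Arntl, rose less, from 101 and 125 CPM to 169.7, 174 and 192 CPM (log2 change 0.66, edgeR adjusted p = 0.0279). Bhlhe40, another repressor, was at 55.5 and 51.3 CPM in control and 93.9, 101 and 72.8 CPM in disease (log2 change 0.74, edgeR adjusted p = 0.0382). On leaving out 1 library the call of Hlf was lost without control 2 (edgeR adjusted p = 0.0584), that of Nr1d1 without any library except disease 4 (log2 change 0.53 to 0.83, p up to 0.148 by the same test) and that of Bhlhe40 without control 1, control 2 or disease 3 (0.65 to 0.87, p up to 0.234). The call of Bhlhe40 was kept under only 8 of 14 alternatives, and was lost as well without the limit on Cxcl9 and Cxcl10, with mitochondrial UMIs limited to 5% and with libraries cut to equal cell numbers.

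Arntl, the activator, moved the opposite way. Its level was 13.6 and 15.3 CPM in control and 3.16, 6.13 and 2.75 CPM in disease, and it fell by 1.93 on the log2 scale (SE 0.34, edgeR adjusted p = 0.013). The call was lost without control 1, control 2 or disease 5 (log2 change -2.28 to -1.70 on leaving out 1 library, edgeR adjusted p up to 0.106). Its partner Clock was also below control in every disease library (51.7 and 60.9 CPM against 42.5, 34.9 and 35.5 CPM) but did not pass the test (log2 change -0.58, edgeR adjusted p = 0.0583). With the GC trend removed Clock was called lower (-0.79, edgeR adjusted p = 0.0311) and Nr1d2 higher (0.60, edgeR adjusted p = 0.0242). Rora, an activator of Arntl, had a log2 change of -0.55 and no call. Per3, Cry2, Nr1d2 and Nfil3 had log2 changes of 0.20, 0.04, 0.22 and 0.34 and no call. The time of day at which hearts were taken is not in the labels, so a difference in that time between groups cannot be told apart from disease.

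**Figure D3:**
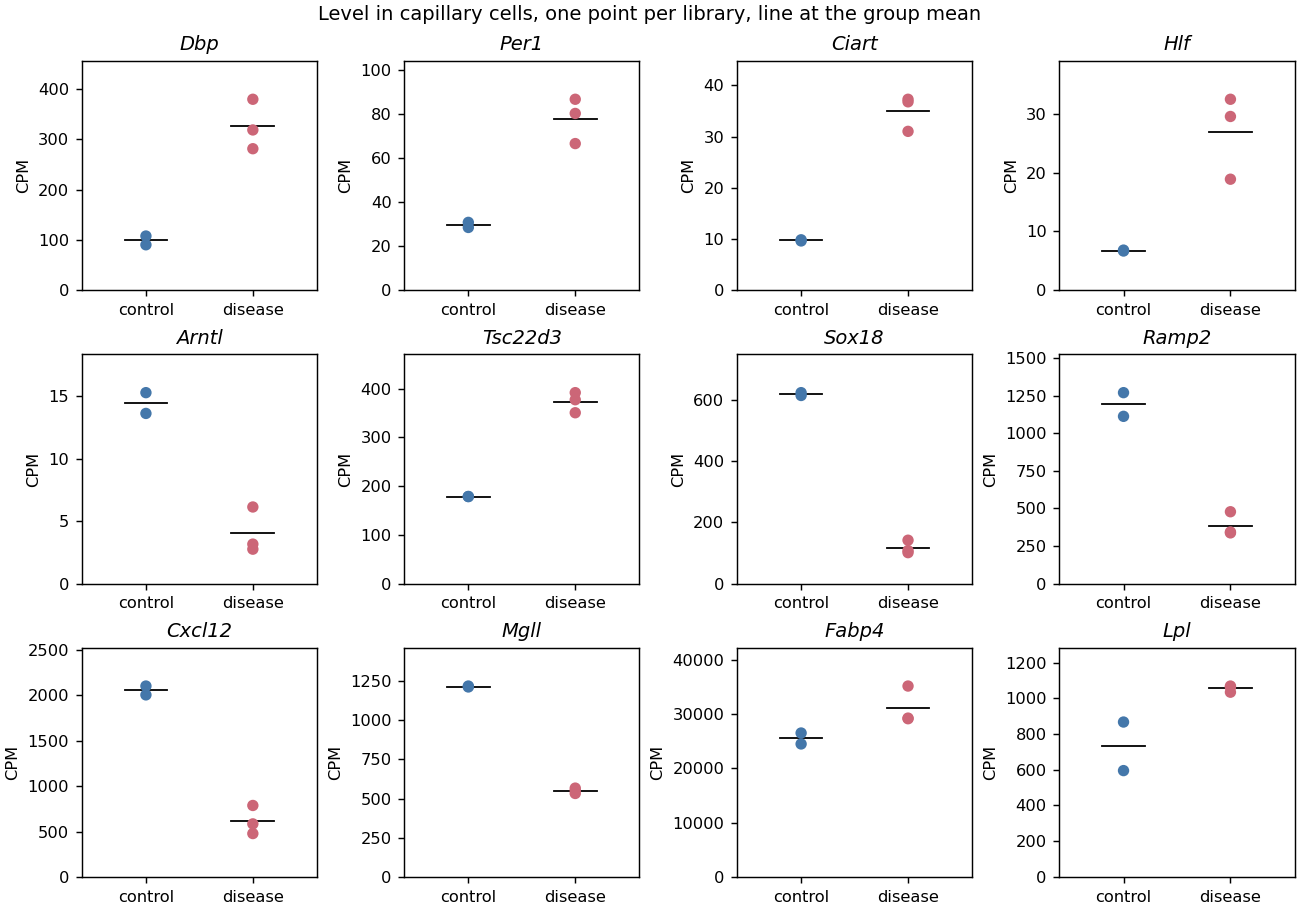
Level in capillary cells (CPM, y axis from 0) of 12 genes, with 1 point per library, control at left and disease at right, and a line at each group mean. Clock genes Dbp, Per1, Ciart and Hlf separate upward, Sox18, Ramp2, Cxcl12, Mgll and Arntl downward, and the disease libraries of Fabp4 lie just above control.

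Genes induced by glucocorticoids overlap the clock through Per1. Of 18 listed and tested, 2 were higher, 4 were lower and 12 were not called, while 0.340% of all genes were higher and 11% lower. Tsc22d3 (GILZ), a classic glucocorticoid target, was at 179 and 178 CPM in control and 377, 350.4 and 392 CPM in disease (log2 change 1.06, SE 0.11, edgeR adjusted p = 0.00171). Other known targets did not follow it: Sgk1 was at 1031 and 738 CPM in control and 899.8, 1301 and 1112 CPM in disease, Klf9 had a log2 change of 0.12, and Fkbp5 lay at 2.52 to 12.3 CPM with overlapping groups. The 4 lower members were Cebpd, Dusp1, Nfkbia and Errfi1, which are also induced by inflammatory or growth signals. Cebpd stood at 167 and 117 CPM in control and 11.5, 10.4 and 13.8 CPM in disease, a fall of 3.56 on the log2 scale (SE 0.21, edgeR adjusted p = 0.000264). Nfkbia, the inhibitor of NF-kappaB, was at 643 and 485 CPM in control and 252, 122 and 135 CPM in disease (log2 change -1.73, edgeR adjusted p = 0.017). Its call was lost without control 1, control 2 or disease 5 (edgeR adjusted p up to 0.105), and that of Dusp1 without control 1 (edgeR adjusted p = 0.076).

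Genes that respond to stress and to tissue dissociation were split. Of 18 immediate early and stress genes, none was higher and 5 were lower (Junb, Atf3, Dusp1, Dnajb1 and Cyr61). Over all genes 0.340% were higher and 11% lower. The median log2 change of the list was -0.22. With the GC trend removed, 1 member was called higher and 4 lower. Atf3, a stress transcription factor, was at 393 and 227 CPM in control and 56.3, 73.1 and 64.1 CPM in disease, and fell by 2.27 on the log2 scale (SE 0.24, edgeR adjusted p = 0.00183). Dnajb1, a heat shock chaperone partner, fell from 275 and 240.1 CPM to 83.3, 63.7 and 55.5 CPM (log2 change -1.93, SE 0.19, edgeR adjusted p = 0.00122). The call of Junb was lost with the GC trend removed (log2 change -0.86, edgeR adjusted p = 0.0894) and without control 1, control 2 or disease 3 (log2 change -1.52 to -1.01 on leaving out 1 library, edgeR adjusted p up to 0.162). Fos and Jun overlapped between groups: Fos was at 1814 and 1331 CPM in control and 1408, 2320 and 1728 CPM in disease. Egr1 lay below control in all disease libraries (log2 change -0.50, edgeR adjusted p = 0.0744) without a call.

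Of 14 genes tested in the fatty acid route, none was higher, 2 were lower (Mgll and Tcf15) and the median log2 change was -0.06; over all genes tested 0.340% were higher and 11% lower, so this count is near that of all genes. Fabp4 had a log2 change of 0.29 (SE 0.13, edgeR adjusted p = 0.233), and with the GC trend removed this was -0.02. Cd36, the fatty acid transporter, was at 4488 and 4227 CPM in control and 4015, 6234 and 4484 CPM in disease, with disease 4 apart from the rest (log2 change 0.17, SE 0.20). Lpl, lipoprotein lipase itself, was at 595 and 867 CPM in control and 1062, 1034 and 1069 CPM in disease (log2 change 0.53, SE 0.17, edgeR adjusted p = 0.118). Fabp5 was at 1232 and 1311 CPM in control and 1709, 1698 and 1595 CPM in disease (log2 change 0.39, edgeR adjusted p = 0.0653). Every disease library was above both controls for 5 of the 14 genes (19.1% of all genes), Fabp4, Fabp5 and Lpl among them, and below for 3 of the 14 (25.2% of all genes). None of the 5 was called. Cav1, the coat protein of caveolae, had a log2 change of 0.19, and Pparg, the lipid-sensing nuclear receptor, -0.26.

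Mgll, which encodes the enzyme that splits monoglycerides, was at 1212 and 1218 CPM in control and 551, 532 and 567 CPM in disease. It fell by 1.14 on the log2 scale (SE 0.10, edgeR adjusted p = 0.000869) and was called under all 14 alternatives. Tcf15 stood at 64.1 and 447 CPM in control and 23.3, 32.1 and 37.8 CPM in disease (log2 change -3.04, SE 0.72, edgeR adjusted p = 0.0442). The 2 controls differed more from each other than control 1 from disease, and the call was kept under 9 of 14 alternatives. It was lost without control 2, where the log2 change was -1.04, and without each disease library (edgeR adjusted p up to 0.151). Its partner Meox2 was at 199.8 and 222 CPM in control and 288, 225 and 235 CPM in disease, with no call.

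Of 15 further genes that mark heart capillaries, 2 were lower, Sox18 and Ramp2, against 11% of all genes. The median log2 change was -0.00. Sox18, a transcription factor of vessel development, stood at 613 and 623 CPM in control and 101, 108 and 141 CPM in disease. It fell by 2.40 on the log2 scale (SE 0.17, edgeR adjusted p = 0.000392), with every disease library far below both controls. Ly6c1 (5759 to 8510 CPM), Cd300lg (889 to 1252 CPM) and Kdr, the main VEGF receptor, had no call. Kdr was at 1389 and 1327 CPM in control and 1064, 1140 and 1062 CPM in disease (log2 change -0.32, SE 0.10, edgeR adjusted p = 0.114), and with the GC trend removed the value was 0.04. Rgcc, a growth regulator typical of heart capillaries, was at 1890 and 2073 CPM in control and 1301, 658 and 1187 CPM in disease (log2 change -0.92, SE 0.27, edgeR adjusted p = 0.0937). Timp4, a protease inhibitor, ranged from 182 CPM in disease 4 to 929 CPM in control 2, with overlapping groups. None of 12 pan-endothelial genes was called (median log2 change 0.16); Egfl7, a secreted vessel protein, ran only from 1974 to 2265 CPM over the 5 libraries.

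The receptor for adrenomedullin, a peptide that opens vessels and tightens their barrier, is made of CALCRL with RAMP2 or RAMP3, and its parts had values of opposite sign. Ramp2 was at 1113 and 1270 CPM in control and 478, 337 and 343 CPM in disease, and fell by 1.63 on the log2 scale (SE 0.18, edgeR adjusted p = 0.00207). Calcrl was at 126 and 136 CPM in control and 172, 195 and 179.9 CPM in disease (log2 change 0.48, SE 0.12, edgeR adjusted p = 0.0495), a call kept under only 3 of 14 alternatives. With the GC trend removed the value was 0.17 (edgeR adjusted p = 0.454). The call was also lost without any library except disease 4 (log2 change 0.43 to 0.54, edgeR adjusted p up to 0.213). Ramp3 had a log2 change of 0.30 and the ligand Adm 0.13, with no call. Of the 12 vasoactive genes tested, the remaining ones were not called; the endothelin receptor Ednrb came closest (log2 change 0.45, edgeR adjusted p = 0.0668), and the nitric oxide synthase Nos3 was at 106 to 129 CPM.

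In VEGF and angiopoietin signalling 1 of 17 genes was higher, Pgf, and 1 was lower, Apln, against 0.340% and 11% of all genes. Pgf, a ligand of the decoy receptor Flt1, was at 6.56 and 5.92 CPM in control and 11.8, 17.4 and 16 CPM in disease (log2 change 1.26, SE 0.25, edgeR adjusted p = 0.0227). Apln, the peptide ligand made by sprouting tip cells, was at 28.8 and 34.8 CPM in control and 12.6, 8.96 and 14.5 CPM in disease (log2 change -1.36, SE 0.22, edgeR adjusted p = 0.00955). The call of Pgf was lost without control 1, control 2 or disease 5 (log2 change 1.16 to 1.41, edgeR adjusted p up to 0.152) and that of Apln without control 2 (edgeR adjusted p = 0.0872). The receptors Flt1 (852 to 976 CPM), Nrp1 and Tek were not called, nor were the tip cell genes Esm1 and Angpt2.

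Among genes of the BMP and TGF-beta pathway, Acvrl1 alone of 14 was called, against 11% of all genes called lower. This receptor for BMP9 and BMP10 was at 176 and 153 CPM in control and 111, 100.4 and 101 CPM in disease (log2 change -0.66, SE 0.12, edgeR adjusted p = 0.0157). The call was lost without control 1, control 2 or disease 5 (log2 change -0.76 to -0.54, edgeR adjusted p up to 0.112). Its co-receptor Eng was below control in each disease library (log2 change -0.32, edgeR adjusted p = 0.166). Id3, a target of the pathway, was at 1736 and 1975 CPM in control and at 2313, 330.1 and 2138 CPM in disease, so that disease 4 stood far below the other 4 libraries. None of 10 Notch genes was called, although Hes1, a Notch target, was at 116 and 143 CPM in control and 165, 239.6 and 239 CPM in disease (log2 change 0.73, edgeR adjusted p = 0.075). With the GC trend removed Hes1 was at 0.29 and 1 Notch gene, Notch1, was called higher (log2 change 0.47, edgeR adjusted p = 0.0444). None of 10 quiescence and anticoagulant genes was called either, although Klf4 (0.64) and S1pr1 (0.52) were called higher with the GC trend removed, against 0.30 and 0.34 before; Klf2, the flow-induced factor, ranged from 334 CPM in disease 4 to 852 CPM in disease 5.

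Of 12 junction genes 2 were lower, against 11% of all genes. Ctnnb1, beta-catenin, was at 626 and 724 CPM in control and 457, 435 and 452 CPM in disease (log2 change -0.59, SE 0.11, edgeR adjusted p = 0.0189). Tjp1, the tight junction scaffold ZO-1, was at 256 and 291 CPM in control and 186, 185 and 181 CPM in disease (log2 change -0.57, edgeR adjusted p = 0.0206). That call was lost with the GC trend removed, where the value was -0.23, and without any library except disease 4 (edgeR adjusted p up to 0.163). The call of Ctnnb1 was lost without control 2, disease 3 or disease 5 (log2 change -0.68 to -0.48, edgeR adjusted p up to 0.162). Cldn5, the tight junction claudin, had a log2 change of -0.40 (edgeR adjusted p = 0.0968). None of 6 leukocyte adhesion genes was called: Icam1 was at 223 and 155 CPM in control and 177, 271 and 213 CPM in disease, and Vcam1 at 16 to 35.8 CPM. None of 14 basement membrane genes was called; with the GC trend removed 1 was, Nid1 (log2 change 0.49, edgeR adjusted p = 0.0438). Outside the lists, 8430408G22Rik was at 428 and 306 CPM in control and 603, 873 and 695 CPM in disease (log2 change 0.98, edgeR adjusted p = 0.0325). Its call was lost without control 2 or disease 5. Phactr4, Lnx1 and Ctla2b, also among the 12 largest rises at a mean log2 CPM of at least 5, had log2 changes of 0.84, 0.74 and 0.60. The call of Phactr4 was lost without control 1, control 2 or disease 3. That of Lnx1 was lost without control 1, disease 3 or disease 5, and that of Ctla2b without control 1, control 2 or disease 5. The calls of Lnx1 and Ctla2b were also lost with the GC trend removed. Timp3, a matrix-bound protease inhibitor, rose from 704 and 804 CPM to 1147, 1178 and 1153 CPM (log2 change 0.62, SE 0.11, edgeR adjusted p = 0.0151). Ackr3, a scavenger receptor for the chemokine CXCL12, rose from 128 and 123 CPM to 169.7, 202 and 214 CPM (log2 change 0.64, edgeR adjusted p = 0.0309). With the GC trend removed the value for Ackr3 was 0.42 (edgeR adjusted p = 0.102), without a call, and that for Timp3 0.91. Both calls were lost without control 1, control 2 or disease 5 (edgeR adjusted p up to 0.101 for Timp3 and 0.2 for Ackr3).

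Cxcl12 itself was the only member of 11 arterial identity genes that was called, against 11% of all genes called lower. It was at 2007 and 2104 CPM in control and 788, 585 and 478 CPM in disease, and fell by 1.74 on the log2 scale (SE 0.21, edgeR adjusted p = 0.00267). Venous, endocardial and lymphatic genes had no call among 6, 3 and 6 tested. Of the 11 arterial genes 8 had a positive log2 change, and the median was 0.17, or -0.04 with the GC trend removed. Dll4, Eln and Jag1 were above control in every disease library (log2 changes 0.37, 0.50 and 0.20, none called), as were 19.1% of all genes. Sema3g (19.4 to 32.1 CPM) and Efnb2 (77.4 to 92.4 CPM) overlapped between groups.

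In MHC class I presentation 5 of 16 genes were lower, against 11% of all genes, none was higher and the median log2 change was -0.33. Without the limit on Cxcl9 and Cxcl10, 4 genes of the list were called. H2-D1, a classical class I heavy chain, was at 4295 and 3625 CPM in control and 689, 780.5 and 685 CPM in disease, and fell by 2.46 on the log2 scale (SE 0.13, edgeR adjusted p = 0.000206). H2-K1, the other classical chain, was at 3401 and 2526 CPM in control and 1403, 727 and 737 CPM in disease (log2 change -1.63, SE 0.31, edgeR adjusted p = 0.0193). H2-Q4 (log2 change -1.62), the loading chaperone Pdia3 (-1.99) and the peptide transporter Tap1 (-0.72) were the other 3. The call of H2-K1 was lost without control 1, control 2 or disease 5 (log2 change -2.02 to -1.39, edgeR adjusted p up to 0.119), and that of Tap1 with the GC trend removed (-0.63, edgeR adjusted p = 0.0688) and without any library except control 2 (-0.96 to -0.42, p up to 0.191 by the same test). The class I genes are near copies of each other, and reads that could come from more than 1 of them make single values uncertain. B2m, the light chain common to all class I molecules, overlapped between groups at 3551 and 2716 CPM in control and 2898, 3514 and 2252 CPM in disease. Tapbp (272 to 303 CPM) and Tap2 (189 to 308 CPM) had no call.

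Genes induced by interferon-gamma were read in cells from which those with 5 or more UMIs of Cxcl9 and Cxcl10 had been taken out. Of 40 tested, none was called higher and 3 were called lower (Socs1, Socs3 and Tap1), against 0.340% and 11% of all genes, and 30 had a positive log2 change with a median of 0.17. Without the limit on Cxcl9 and Cxcl10 the median was 0.45 and 1 gene of the list was called. The median was -0.16 without disease 4 and -0.08 with the GC trend removed. Gbp2 was at 303 and 172 CPM in control and 196, 469.7 and 279 CPM in disease (log2 change 0.40, SE 0.40). Iigp1, an immunity-related GTPase, was at 651 and 424 CPM in control and 419.6, 807 and 494 CPM in disease. For both genes disease 4 was highest and control 1 above disease 3, so that the groups overlapped. Socs1, the feedback inhibitor of the interferon-gamma receptor, was at 29.3 and 24.2 CPM in control and 4.31, 10.4 and 8.26 CPM in disease (log2 change -1.84, SE 0.31, edgeR adjusted p = 0.0122). That call was lost without the limit on Cxcl9 and Cxcl10, with mitochondrial UMIs limited to 5%, and without control 1, control 2 or disease 5 (log2 change -2.06 to -1.54, edgeR adjusted p up to 0.0778), and that of Socs3 without control 1 or disease 5. Psmb8, of the immunoproteasome, was at 651 and 495 CPM in control and 469.6, 78.8 and 181 CPM in disease, with no call. Among 23 type I interferon genes only Cmpk2, a mitochondrial nucleotide kinase, was called, and it was lower (log2 change -1.07, edgeR adjusted p = 0.00626). Near copies among the Gbp and Tgtp genes make single values uncertain.

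MHC class II transcripts varied more between libraries than between groups. All 8 genes had a positive log2 change (median 0.99, and 0.33 without disease 4) and none was called. Cd74, the class II chaperone, was at 508 and 132 CPM in control and 389, 1204 and 477 CPM in disease (log2 change 1.11, SE 0.69, edgeR adjusted p = 0.386). The macrophage gene C1qb moved with it, at 91.6 and 23.9 CPM in control and 54.3, 156 and 76.8 CPM in disease. The ratio of Cd74 to C1qb in capillary cells was 5.55 and 5.52 in control and 7.16, 7.74 and 6.21 in disease, against 4.17 to 6.97 in leukocyte-gated barcodes of the same libraries. In arterial-gated cells the ratio was 10.6 to 15.5, and in fibroblast-gated cells it was 6.79 and 4.05 in control and 21.7, 17.0 and 15.8 in disease. The ratio of Gbp2 to C1qb was 3.02 to 7.20 in capillary cells, 4.42 to 9.98 in arterial-gated cells, 2.80 to 14.2 in fibroblast-gated cells and 0.007 to 0.065 in leukocyte-gated barcodes. Gbp2 was at 915 CPM in the fibroblast-gated cells of disease 4, above its 477 CPM without TMM scaling in capillary cells. Leukocyte-gated barcodes were chosen by UMIs of Cd3e, C1qa and Cd79a, with none of Cdh5, Pecam1, Dcn or Col1a1. The other classes were limited on the same leukocyte genes. C1qa is the partner gene of C1qb, so the choice of cells itself acted on the C1qb level in these ratios. The part of free RNA in the class II and Gbp2 values of capillary cells was not tested.

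Sums of marker lists of other cells are given without TMM scaling. All 9 macrophage markers were detected and summed to 488 and 161 CPM in control and 358, 642 and 333 CPM in disease. The 8 T cell markers summed to 32.7 and 6.01 CPM in control and 9.98, 128 and 18.4 CPM in disease, highest in disease 4 like Gbp2 and Cd74. The 4 red cell genes summed to 1271 and 2576 CPM in control and 4257, 6618 and 1517 CPM in disease, and the 10 cardiomyocyte genes to 1680 and 1579 CPM against 1510, 1119 and 1623 CPM. Fibroblast markers summed to 285 to 729 CPM, pericyte markers to 179 to 228 CPM, smooth muscle markers to 61.3 to 101 CPM, neutrophil markers to 3.31 to 198 CPM and B cell markers to 0.989 to 6.23 CPM. Of these lists 1 gene was called, the smooth muscle gene Des, at 40.9 and 37.0 CPM in control and 10.9, 8.02 and 15.3 CPM in disease. Their part in the results was not tested.

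Single cells showed how evenly the interferon and class II genes were spread. After thinning to 1000 UMIs (1176, 1258, 1066, 782 and 1345 cells left in control 1, 2 and disease 3, 4 and 5), 2 or more UMIs of 11 interferon-induced GTPase genes were found in 53.7% and 36.7% of control cells and 39.8%, 55.5% and 41.0% of disease cells. The group means were 45.2% ± 12 (SD, n = 2) and 45.4% ± 8.74 (SD, n = 3), with an exact permutation p = 1.0, and 78.0% and 71.4% before thinning. The upper end of the cells differed more: the 90th percentile was 6 and 4 UMIs in control and 4, 9 and 5 UMIs in disease, and the variance over the mean was 3.03 and 2.42 against 2.46, 6.39 and 3.99. Cells with 2 or more UMIs of 4 class II genes made up 24.1% and 4.45% in control and 3.66%, 56.5% and 17.4% in disease (exact permutation p = 0.9), and 41.0% and 49.9% on average before thinning. In fibroblast-gated cells of the same libraries the class II share was 10.1%, 1.41%, 2.36%, 26.3% and 7.11%, in the same order of libraries apart from control 2 and disease 3.

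Few capillary cells held 2 or more UMIs of cell cycle or tip genes after thinning. After thinning, 2 or more UMIs of 5 cell cycle genes were found in 0.085% and 0.0795% of control cells and 0.0938%, 0.512% and 0.223% of disease cells. These are 1 cell each in control 1, control 2 and disease 3, 4 cells in disease 4 and 3 cells in disease 5. In another random draw of the thinning they were 2, 1, 1, 3 and 0 cells in the same order of libraries, so no difference in cycling was detectable at this depth. After thinning, 2 or more UMIs of tip genes were found in 1.70% to 2.90% of capillary cells. The tip gene share was 0.942% to 3.25% in fibroblast-gated and 1.46% to 3.28% in arterial-gated cells, so it was not particular to capillary cells. Before thinning, the capillary group means for control and disease were 0.246% and 0.581% for cycling and 11.5% and 10.2% for tip genes. Capillary cells with 2 or more UMIs of 5 venous-side genes made up 5.44% to 7.14% after thinning. Before thinning they averaged 30.9% in control and 26.4% in disease. In arterial-gated cells the thinned share was 3.28% to 6.32%. Aplnr, of this list, had a median of 199.6 CPM without TMM scaling in capillary cells. In Vwf, Npr3 and Cytl1-gated cells its median was 26.3 CPM, so the list does not single out venous cells. For the cycling, tip and venous-side shares of capillary cells the exact permutation p was 0.2, 0.2 and 0.8. Cells on the arterial side, by 6 genes including Cxcl12, made up 49.1% and 54.1% in control and 28%, 22% and 19.6% in disease, and on average 84.2% and 53.7% before thinning. The groups did not overlap (exact permutation p = 0.1, the smallest possible, and 0.4 adjusted over the 6 states). With Cxcl12 left out the arterial-side share was 3.77% ± 0.401 (SD, n = 2) in control and 4.77% ± 0.843 (SD, n = 3) in disease (exact permutation p = 0.3), so the lower share in disease was seen only with Cxcl12 counted.

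The 12 largest falls were taken from the 557 called genes with a mean log2 CPM of at least 5 and groups without overlap, and were in genes of varied function. Ccdc85b, a transcriptional co-repressor, was at 530.0 and 619 CPM in control and 14.9, 0 and 9.51 CPM in disease (log2 change -6.02, SE 0.71, edgeR adjusted p = 0.00265). Cox5a, a subunit of mitochondrial cytochrome oxidase, was at 403 and 382 CPM in control and 16.4, 17.9 and 19.8 CPM in disease (log2 change -4.44, SE 0.13, edgeR adjusted p = 8.02e-05). The others among the 12 largest falls, from Rnaset2a at -4.91 to Bola3 at -4.02, were called under all 14 alternatives. Rnaset2a and Rnaset2b are near copies. Falls of like size were measured in other cells of the same libraries: Ccdc85b had a log2 change of -5.87 in arterial-gated and -6.70 in fibroblast-gated cells, and Cox5a -4.39 and -4.08.

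**Figure D4:**
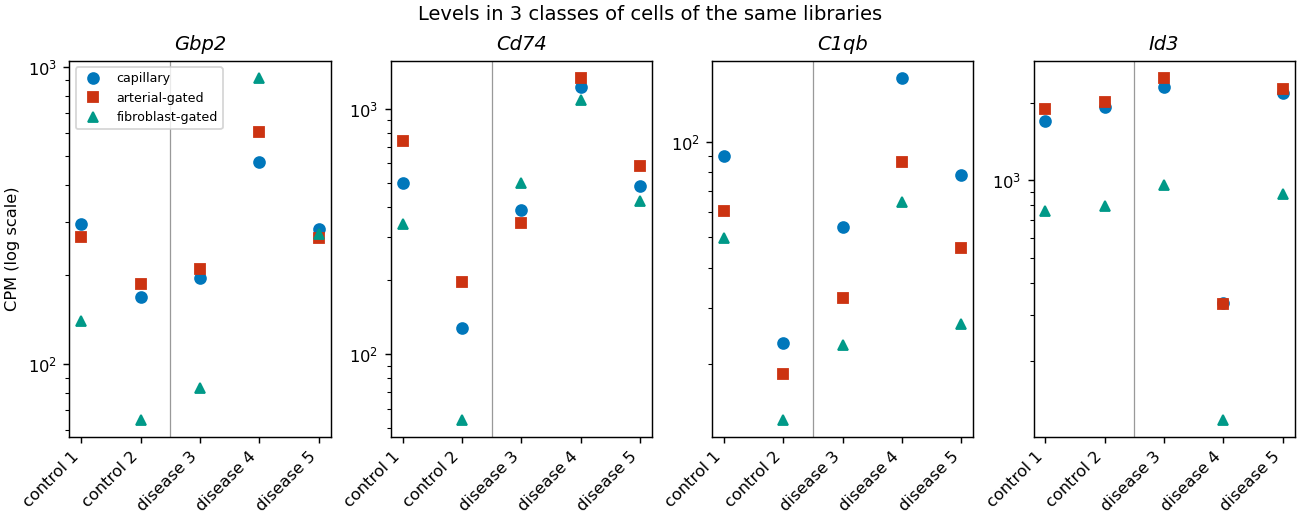
Level (CPM without TMM scaling, log axis) of Gbp2, Cd74, C1qb and Id3 in capillary, arterial-gated and fibroblast-gated cells of each library. Disease 4 is highest for Gbp2 and Cd74 in all 3 classes and lowest for Id3 in all 3.

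Whether capillary cells differed from other cells of the same hearts was tested on the difference itself, the disease change in capillary minus that in another class, with the library as a block in edgeR. Against arterial-gated cells (302 to 683 per library, 2 or more UMIs of Stmn2, Hey1 and Gja4), 0 of 11356 genes were called (0%), and 567 had an unadjusted p under 0.05. The 2 classes showed like values: Dbp had a log2 change of 1.72 in capillary and 1.52 in arterial-gated cells, Sox18 -2.40 and -2.45, Mgll -1.14 and -1.22, and Cxcl12 -1.74 and -1.97. The gates differed in make-up: pericyte markers summed to 1679 to 2504 CPM in arterial-gated cells against 179 to 228 CPM in capillary cells, smooth muscle markers to 803 to 1646 CPM against 61.3 to 101 CPM, and the lymphatic gene Ccl21a was at 197 to 455 CPM in arterial-gated cells. The part of this in the comparison was not tested. Cd74 was among the smallest p-values (difference 0.54, SE 0.10, edgeR adjusted p = 0.255), as was Cldn5 (-0.48, SE 0.11, edgeR adjusted p = 0.48), and neither was called.

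Against fibroblast-gated cells (1217 to 2774 per library), 8 of 13180 genes were called (0.0607%). The count was 2 without disease 5, 17 without disease 4 and 113 without disease 3. At most 2 of the 8 genes therefore kept their call without disease 5. Ramp2 fell in capillary cells and had no call in fibroblasts (log2 change -0.42, edgeR adjusted p = 0.162), where it was at 354 and 461 CPM in control and 308, 276 and 344 CPM in disease without TMM scaling. The 2 changes differed (difference -1.36, SE 0.18, edgeR adjusted p = 0.0258). Npdc1, a membrane protein of neural and endothelial cells, was at 184 and 179 CPM in control capillary cells and 26.5, 30.2 and 35.2 CPM in disease, against 293 and 288 CPM and 140, 129 and 163 CPM in fibroblasts (difference -1.71, SE 0.15, edgeR adjusted p = 0.000737). Arhgap10, a regulator of small GTPases, went the other way. It stood at 59.6 and 75.8 CPM and 72.7, 84.3 and 77.3 CPM in capillary cells, and fell in fibroblasts from 35.0 and 50.9 CPM to 12.4, 14.8 and 17.0 CPM (difference 1.58, SE 0.16, edgeR adjusted p = 0.00165). The difference was also below 0 for Chn2, Uap1, Ugp2 and Serpina3f, the last with a log2 change of 1.40 in capillary and 3.81 in fibroblast-gated cells and no call in either. It was above 0 for Smco4, with log2 changes of -0.85 and -2.12. Clock genes were not called in this comparison: the difference was 0.84 for Per1 (SE 0.15, edgeR adjusted p = 0.09), 1.22 for Per2, 1.16 for Hlf, -0.10 for Dbp and -0.42 for Arntl.

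**Figure D5:**
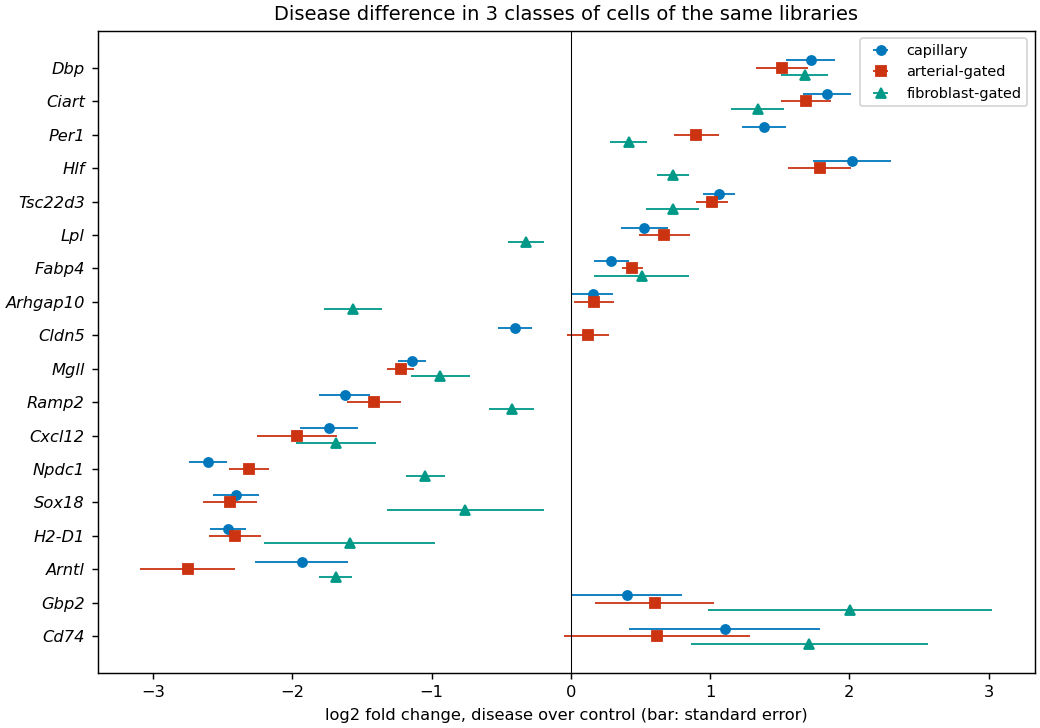
Log2 fold change of disease over control (x axis, bars are standard errors) of 18 genes in capillary, arterial-gated and fibroblast-gated cells. Capillary and arterial-gated points lie close together for most genes, while Ramp2 lies further below 0 and Arhgap10 lies higher in capillary cells than in fibroblast-gated cells.

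Against the Vwf, Npr3 and Cytl1-gated cells (9 to 21 per library), 6 of 9992 genes were called (0.0600%), among them Igfbp5 and Mgp with a difference above 0 and Igfbp7, Rgcc and Sparcl1 with a difference below 0. Sparcl1 had a log2 change of 0.25 in capillary cells and 2.37 in the other class, neither called. None was called without control 2 or without disease 5. The gated cells themselves differed between libraries: Npr3 was at 447 and 1050 CPM in control and 316, 51.6 and 0 CPM in disease, and the capillary gene Gpihbp1 at 881 and 420 CPM in control and 1237, 1033 and 2220 CPM in disease. Car4 was at 13.1 and 0 CPM in control and 126, 0 and 297 CPM in disease. Rgcc was at 131 and 78.8 CPM in control and 391, 77.5 and 674 CPM in disease in these cells, highest in disease 3 and 5, the libraries with most Car4. The part of the make-up of the gated cells in these differences was not tested. Igfbp7, a secreted growth factor binding protein, was at 1444 and 3100 CPM in control capillary cells and 329, 174 and 322 CPM in disease (log2 change -3.05, SE 0.39, edgeR adjusted p = 0.00374).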

How the data were processed

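Hearts were profiled with 10x Genomics 5′ chemistry (v1.1). The deposited matrices hold whole-number UMI counts per gene and barcode, made by the authors with Cell Ranger (version 3 per the submitters' processing notes, 3.1.0 per the file headers; Seurat 3 and builds mm10 and GRCh38 are also named in those notes). Capillary cells were gated on raw counts as described, and counts were summed per library. Genes were tested with edgeR 4.0.16 (quasi-likelihood, TMM, filterByExpr, Benjamini-Hochberg over all genes, R 4.3.3), with DESeq2 1.42.0 as an alternative. Differences between cell classes used the library as a block. Shares were compared with 2-sided exact permutation tests over 10 splits. Doublets were called with Scrublet in scanpy 1.11.5 and stayed in. In counts simulated for the capillary comparison (11190 genes, 100 changed 2-fold and 100 changed 4-fold, log2 1 and 2), the test recovered 87% and 100%. For the class comparison, simulated at the depth of arterial-gated cells, it recovered 46% and 99%. The simulated counts had the same dispersion for every gene, and only the more abundant genes were changed. Recovery for genes of wider spread or lower level was not simulated. Nor was recovery at the depth of the fibroblast-gated or the Vwf, Npr3 and Cytl1-gated cells.

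Genes were named from those of the gate and lists, the 12 largest rises and falls among called genes with mean log2 CPM of at least 5 and groups without overlap, the 12 most abundant genes, and the 6 smallest p-values of each class comparison; other genes called in a class comparison were named after their values were seen. Cells, lists and tests were chosen with earlier results of these data known. GC was taken from the first 300 bases of GENCODE mouse transcripts (6814 of 6816 genes above log2 CPM 4 had a value). Alternatives comprised filters, gate limits, thinning, a GC trend and leaving out each library. Not every gene the rule picked is described; those left out are among the most abundant genes, the largest falls and the smallest p-values of the arterial comparison. 1 gene called in a class comparison is not reported here.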

Additional observations from a re-analysis of the deposited data

Results flagged for a closer look

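For 13 genes named here the disease difference in capillary cells differed from that in another class of cells, by the edgeR test of the difference. Values are the capillary log2 fold change minus that of the other class. Against fibroblast-gated cells the difference was -1.71 for Npdc1, -1.36 for Ramp2 and -1.80 for Chn2, a GTPase-activating protein that turns Rac off. It was -1.08 for Uap1 and -1.13 for Ugp2, which both make sugar nucleotides, and -2.44 for Serpina3f, a serpin of the interferon-responsive cluster. It was 1.58 (1.575 before rounding) for Arhgap10 and 1.15 for Smco4. Smco4 fell in both classes, by 0.85 in capillary and 2.12 in fibroblast-gated cells on the log2 scale. Serpina3f had no call in either class alone and differed widely between disease libraries, at 0.57, 33.5 and 17.3 CPM in capillary and 2.91, 166 and 46.3 CPM in fibroblast-gated cells. Genes called against fibroblast-gated cells numbered 2 without disease 5, 17 without disease 4 and 113 without disease 3. At most 2 of the 8 genes named here for that class therefore kept their call without disease 5.

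Against the Vwf, Npr3 and Cytl1-gated cells the difference was 2.37 for Igfbp5, 1.62 for Mgp, -2.92 for Igfbp7, -2.39 for Rgcc and -1.85 for Sparcl1. These rest on 9 to 21 gated cells per library, and none of these was called without control 2 or without disease 5. Sparcl1 in those cells was at 355 and 105 CPM in control and 1957, 362 and 1645 CPM in disease. Their make-up differed between libraries: in the 9 cells of disease 5 no UMI of Npr3 or Cytl1 was counted, against 34 and 40 of Npr3 in control 1 and 2, while Gpihbp1 had 112 UMIs in disease 5 and 67 and 16 in control. Its part in these differences was not tested.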

How the results depend on the processing

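No paired analysis was possible because the control and disease libraries share no replicate number. The capillary comparison gave 23 genes higher without a filter on low counts and 120 with the GC trend removed; leaving out 1 library gave 8 (without disease 5) to 49 (without disease 4) higher, with 9 without control 1, 15 without control 2 and 21 without disease 3. On leaving out 1 library, lower genes ranged from 619 (without control 2) to 1243 (without disease 4), with 687 without disease 5; over all alternatives the highest count was 1330, with the free RNA filter. Of the called genes, 547 were called under every alternative, 5 higher and 542 lower. Differences from arterial-gated cells numbered 29 without the filter and 0 to 6 on leaving out 1 library, those from fibroblast-gated cells 195 and 2 to 113 (113 without disease 3, 17 without disease 4, 4 without control 1, 2 without disease 5), and those from Vwf, Npr3 and Cytl1-gated cells 0 to 13 on leaving out 1 library. The capillary share of barcodes turned to 2.29 points higher in disease without control 2 and 0.55 without disease 4 (range -7.80 to 2.29). State shares changed sign as follows, in points: cycling -0.0823 at 3 or more UMIs; GTPase -6.60 without thinning, -2.08 with the thinning drawn again, -8.30 without control 2 and -4.83 without disease 4 (range -8.30 to 8.71); class II -3.73 without disease 4 (range -3.73 to 22.7); tip genes -1.29 without thinning; arterial side 1.00 with Cxcl12 left out; venous side 0.31 at 3 or more UMIs, 1.62 with the thinning drawn again, 0.50 without control 2 and 0.10 without disease 3 (range -4.49, without thinning, to 1.62; -0.96 to 0.50 on leaving out 1 library). Leaving out Cxcl12 and drawing the thinning again were chosen after seeing the data. The cause was not tested. Of 59 named called genes none changed sign under any alternative, and between 0 (DESeq2 and the free RNA filter) and 22 (without control 2) lost their call, 21 without control 1 and without disease 5. With mitochondrial UMIs limited to 5%, the calls of Bhlhe40, Calcrl, Junb, Pgf, Socs1, Tap1, Tcf15, Tef and Tjp1 were lost. Among up to 317 listed genes without a call, 91 changed sign with the GC trend removed, 69 without control 2, 58 without disease 4 and 42 without control 1.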
